A study of Mus musculus with 2 samples.

Results

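Basement membranes are thin sheets of matrix under continuous endothelium. They are built from a collagen IV network and a laminin network, which nidogens and the heparan sulfate proteoglycan perlecan link to each other, and collagens XV and XVIII sit on their outer side. Liver sinusoidal endothelial cells (LSECs) are discontinuous and rest on little such matrix, and its appearance along the sinusoid is one feature of capillarization. Described here are 10 genes: *Col4a1* and *Col4a2* (the alpha chains of the common collagen IV molecule), *Lama4*, *Lamb1* and *Lamc1* (an alpha, a beta and a gamma chain of laminin), *Nid1* and *Nid2* (the nidogens), *Hspg2* (perlecan), and *Col15a1* and *Col18a1*. They were chosen by gene symbol and are 10 of the 32285 genes in the deposited count tables.

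Single-cell 3′ RNA-seq of LSEC preparations from control mice, labelled WT, and from *Maf* LSEC-KO mice, labelled KO, was analysed. A unique molecular identifier (UMI) marks each captured mRNA molecule. *Maf* LSEC-KO mice carried *Clec4g-iCre* and floxed *Maf* on both alleles, and controls were Cre-negative littermates with floxed *Maf* on one or both alleles. The *Clec4g* promoter drives Cre in liver endothelium, and the cells were enriched with anti-CD146 beads, a selection that can also retain endothelium of large vessels. Age and sex of the mice used for scRNA-seq are not given in the sources used here. Each condition was 1 library from a pool of 3 mice, so no difference between conditions could be tested. Values in parentheses are 95% intervals for counting error only.

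After removal of doublets, of cells with a UMI of *Vwf* (a large-vessel gene) and of cells with UMIs of 2 or more of 7 stellate genes, 4053 control LSECs (median 8372 UMIs) and 3202 *Maf* LSEC-KO LSECs (median 13836.5 UMIs) were left. The libraries shared 10 cell barcodes. *Maf*, the targeted gene, stood at 3476 CPM (UMIs per 1000000, without those of mitochondrial and ribosomal genes) in control and 124.2 CPM in knockout LSECs. The endothelial markers *Pecam1* (714.8 and 779.8 CPM) and *Cdh5* (990.0 and 1067 CPM) were present in both, and the LSEC genes *Stab2* (1639 and 179.2 CPM) and *Clec4g* (3027 and 1521 CPM) were lower in the second. The 14 endothelial genes summed to 23090 and 14090 CPM.

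*Col4a1* (ENSMUSG00000031502) and *Col4a2* (ENSMUSG00000031503) lie head to head on chromosome 8 of mm10. *Col4a1* spans 11198423 to 11312826 on the minus strand, and *Col4a2* spans 11312805 to 11449287 on the plus strand, so that the annotated genes overlap by 22 bases. Their promoter windows are shown because a single stretch of DNA holds the start of both genes and because their levels moved together in the comparisons below. Each window holds 250 bases before and 50 bases after the start, 5′ to 3′ on the strand of its gene, from RefSeq on GRCm38.p6. Capitals mark the GC box GGGCGG and the CCAAT box CCAAT, searched on both strands, and the windows share 78 bases.
Col4a1, chr8:11312777-11313076, minus strand: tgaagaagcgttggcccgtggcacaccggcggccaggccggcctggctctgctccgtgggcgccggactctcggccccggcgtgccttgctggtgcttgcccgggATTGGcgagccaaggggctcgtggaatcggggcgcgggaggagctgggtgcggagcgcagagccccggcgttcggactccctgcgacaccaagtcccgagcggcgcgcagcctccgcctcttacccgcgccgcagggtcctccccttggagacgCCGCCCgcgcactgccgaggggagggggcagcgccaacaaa
Col4a2, chr8:11312555-11312854, plus strand: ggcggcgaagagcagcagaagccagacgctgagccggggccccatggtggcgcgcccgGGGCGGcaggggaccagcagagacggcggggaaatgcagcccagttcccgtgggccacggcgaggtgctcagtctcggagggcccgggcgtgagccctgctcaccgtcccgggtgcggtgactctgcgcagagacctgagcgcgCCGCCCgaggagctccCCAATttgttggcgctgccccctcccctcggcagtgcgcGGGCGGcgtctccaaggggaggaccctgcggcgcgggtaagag
The *Col4a1* window held 1 GC box and 1 CCAAT box, and the *Col4a2* window 3 GC boxes and 1 CCAAT box. The GC box of the *Col4a1* window lies in the shared bases. It is the last of the 3 GC boxes of the *Col4a2* window, read on the other strand, and is counted in both. Of 32851 promoter windows of this length, 35.7% held a GC box and 37.4% a CCAAT box. Windows were found for 7 of the 10 genes. TGCTGA, a part of the Maf recognition element, was found in the window of *Lamb1* and in no window of the other 6 genes, *Col4a1* and *Col4a2* included, against 19.5% of all windows. A match describes the letters and not a binding site.

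The collagen IV genes were 2.32-fold (*Col4a1*) and 2.34-fold (*Col4a2*) higher in *Maf* LSEC-KO LSECs than in control LSECs. *Col4a1* had 24727 UMIs in control LSECs, that is 766.7 CPM (757.2–776.3). After the knockout it had 69987 UMIs, that is 1780 CPM (1767–1793), for a log2 ratio of 1.21 (1.19 to 1.24). *Col4a2* rose in parallel, from 341.0 CPM (334.6–347.4) to 796.6 CPM (787.8–805.5), with a log2 ratio of 1.22 (1.19 to 1.26). The number of *Col4a1* UMIs per *Col4a2* UMI was 2.25 (2.20–2.30) in control LSECs, and 2.23 (2.21–2.26) was found in *Maf* LSEC-KO LSECs. It was 2.30 (2.07–2.56) and 2.26 (2.22–2.31) in *Vwf*-positive endothelial cells, and 2.42 (1.71–3.46) and 2.34 (1.89–2.92) in stellate-like cells of the respective libraries. These intervals all overlap, so the proportion of the chains did not differ beyond counting error where their level did. The smooth muscle and fibroblast list, which marks other matrix-making cells but also holds *Cd34*, a gene of capillary endothelium, stood at 35.7 CPM in control and 412.6 CPM in knockout LSECs. *Cd34* alone stood at 29.4 and 386.3 CPM and the other 9 genes of the list together at 6.29 and 26.4 CPM. Most of the latter was *Pi16*, at 3.63 and 17.8 CPM. The smooth muscle genes *Acta2* and *Myh11* stood at 0.0310 and 0.661 CPM and at 0.124 and 0.0763 CPM. The part of these genes in the collagen IV values was not tested.

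Of the laminin chains, *Lamc1* was higher by a similar factor, *Lama4* was near its control level, and *Lamb1* was rare. *Lamc1*, the gamma chain of most laminins, went from 45.5 CPM (43.2–47.9) to 104.3 CPM (101.1–107.5), a log2 ratio of 1.20 (1.11 to 1.29). *Lama4*, the alpha chain typical of endothelial laminin, stood at 246.8 CPM (241.4–252.3) without and 256.1 CPM (251.2–261.2) with the knockout, a log2 ratio of 0.05 (0.01 to 0.10). The *Lama4* to *Lamc1* UMI ratio accordingly went from 5.43 (5.13–5.74) to 2.46 (2.37–2.55). *Lamb1*, a beta chain, had 7 UMIs in control LSECs, or 0.217 CPM (0.0873–0.447), and 187 UMIs after the knockout, or 4.76 CPM (4.10–5.49). Its log2 ratio was 4.45 (3.38 to 5.79), and 1.92 when cells with stellate RNA were kept. *Lamb2*, the other beta chain of endothelial laminins, named here after its values were seen, stood at 82.6 CPM in control LSECs, against 73.7 CPM after the knockout.

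Among the linkers, *Nid2* moved far more than *Nid1* and *Hspg2*. *Nid2* had 142 UMIs in control LSECs (4.40 CPM (3.71–5.19)) and 1070 UMIs after the knockout (27.2 CPM (25.6–28.9)). Its log2 ratio of 2.63 (2.37 to 2.89) was the highest among the 7 members that had a mean of at least 10 CPM over both groups. *Nid1* stood at 353.8 CPM (347.3–360.4) and 430.8 CPM (424.3–437.3), a log2 ratio of 0.28 (0.25 to 0.32). The *Nid1* to *Nid2* UMI ratio fell from 80.3 (68.1–95.5) to 15.8 (14.9–16.9). *Hspg2*, the proteoglycan, stood at 758.9 CPM (749.4–768.5) and 777.5 CPM (768.8–786.3), a log2 ratio of 0.04 (0.01 to 0.06). The small differences of *Hspg2* and *Lama4* took the opposite sign, −0.16 and −0.14, when libraries were scaled to the UMIs of all genes.

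The collagens of the outer side were rare in both conditions. *Col15a1* had 2 UMIs in control LSECs, or 0.0620 CPM (0.00751–0.224), and 121 UMIs after the knockout, or 3.08 CPM (2.55–3.68). Its log2 ratio was 5.63 (3.75 to 8.69). *Col18a1*, whose protein releases endostatin, had 24 and 128 UMIs, or 0.744 CPM (0.477–1.11) and 3.25 CPM (2.72–3.87). Its log2 ratio was 2.13 (1.49 to 2.82), and 9 of the control UMIs came from 1 cell.

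**Figure D1:**
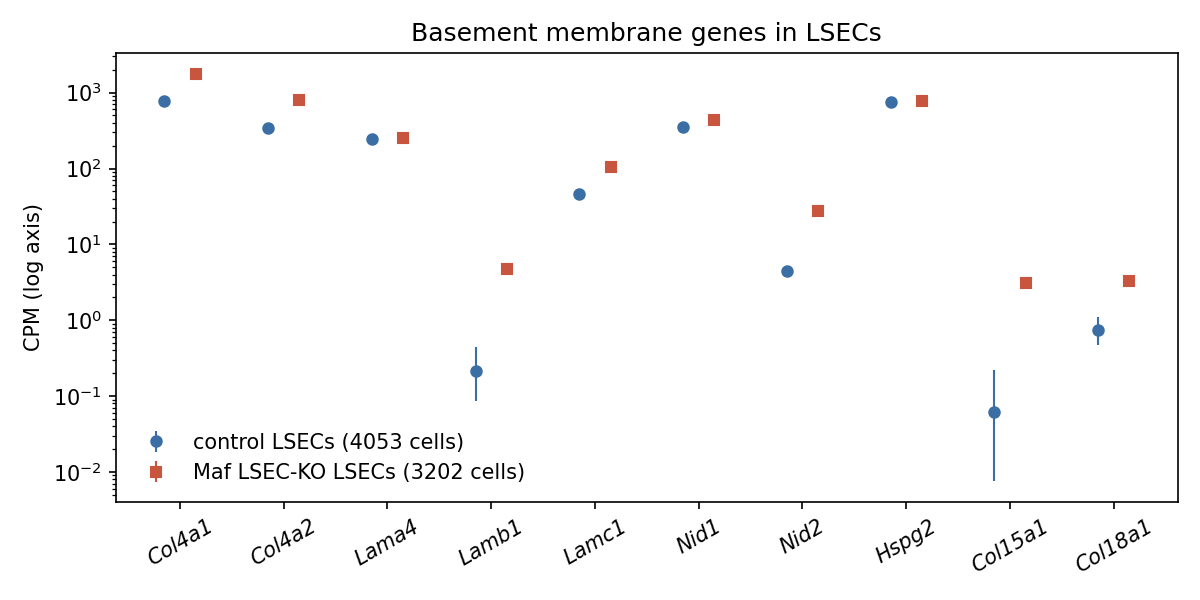
CPM (log axis) of the 10 genes in control LSECs (circles, 4053 cells) and *Maf* LSEC-KO LSECs (squares, 3202 cells), with exact Poisson 95% intervals. *Col4a1*, *Col4a2*, *Lamc1* and *Nid2* are shifted upwards by at least 2-fold, *Lama4* and *Hspg2* lie at nearly the same height in both groups, and *Lamb1*, *Col15a1* and *Col18a1* lie below 5 CPM in both.

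Of the 10 members, 7 had a mean of at least 10 CPM over LSECs of both libraries. Of these, 4 were at least 2-fold higher in *Maf* LSEC-KO LSECs and 0 were at least 2-fold lower. *Nid2*, 1 of the 4, stood below 10 CPM in control LSECs and reached the mean only through the knockout group, where it was high. Of all 8911 genes at this level, 8.97% were at least 2-fold higher and 4.16% at least 2-fold lower. The median log2 ratio was 1.20 over the 7 members, *Nid2* included, and 0.12 over all 8911 genes. Apart from *Nid2*, *Lamc1*, *Col4a1* and *Col4a2* lay at 1.20 to 1.22 and *Hspg2*, *Lama4* and *Nid1* at 0.04 to 0.28. The member median therefore depends on *Nid2*. Summed over the 10 members, LSECs held 2518 CPM (2501–2535) in control and 4184 CPM (4163–4204) in knockout mice. *Col4a1* and *Col4a2* made up 30.4% and 13.5% of member UMIs in the former, and 42.5% and 19.0% in the latter.

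Because the knockout library was deeper, the shares of cells with a UMI were compared at 2700 UMIs per cell, drawn at random from each LSEC. This left out 404 control and 186 knockout LSECs with fewer UMIs. A *Col4a1* UMI was then detected in 77.1% (75.7–78.4) of the control LSECs, against 92.7% (91.7–93.6) of the knockout LSECs (unthinned 89.7% and 96.2%). *Col4a2* was detected in 51.8% (50.2–53.4) against 75.0% (73.5–76.6) (unthinned 77.8% and 93.1%). *Lamc1* was detected in 9.43% (8.50–10.4) against 19.9% (18.5–21.4) (unthinned 27.2% and 58.6%). The collagen IV genes were thus detected in most LSECs of both conditions, and in more of them after the knockout.

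*Nid2* remained a gene of few cells, detected in 0.740% (0.488–1.07) against 4.41% (3.71–5.21) (unthinned 3.33% and 20.5%). *Lama4* was detected in 40.6% against 39.5% (unthinned 67.6% and 80.7%), and *Hspg2* in 80.5% against 77.6% (unthinned 91.0% and 93.7%).

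Lymphocyte-like cells (B, T and NK cell-like), which should lack these genes, served as the background (76 control cells, median 6959.5 UMIs, and 100 knockout cells, median 5859.5 UMIs). After thinning, a *Col4a1* UMI was detected in 21.7% (12.7–33.3) of the control and 15.6% (9.02–24.5) of the knockout lymphocyte-like cells. *Lamc1* was detected in 5.80% (1.60–14.2) and 3.12% (0.649–8.86), and the first range includes the share in control LSECs. *Nid2* was detected in 0 of 69 control cells, compatible with shares up to 4.35%, and in 2.08% (0.253–7.32) of the knockout cells, a range that includes the share in LSECs. After thinning, *Lamb1*, *Col15a1* and *Col18a1* had 0 UMIs in lymphocyte-like cells, where up to 4.35% and 3.12% could have held them, more than the thinned shares of these genes in LSECs. Without thinning, *Col18a1* had 2 UMIs in the control (3.36 CPM (0.407–12.1)) and 1 UMI in the knockout lymphocyte-like cells (1.91 CPM (0.0484–10.7)), and *Lamb1* and *Col15a1* had 0. The thinned shares of these 3 genes and of *Nid2* are therefore not separable from background at this depth.

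The summed levels in other cells differed between cell types. In the control library, lymphocyte-like cells held the 14 endothelial genes at 52.4%, *Col4a1* at 53.9%, *Col4a2* at 63.5%, *Lamc1* at 62.8% and *Nid2* (4 UMIs) at 152.6% of the LSEC level. Most of these *Col4a1* UMIs (223 of 246) came from the 47 B cell-like cells, with endothelial genes at 15350 CPM and *Col4a1* at 531.1 CPM (463.7–605.6), whose cluster held 8 of the 14 endothelial genes in 50% or more of its cells. The 29 T and NK cell-like cells held endothelial genes at 4297 CPM and *Col4a1* at 131.1 CPM (83.1–196.7), and neutrophil and monocyte-like cells held *Col4a1* at 8.94% of the LSEC level. In the knockout library, lymphocyte-like cells held the endothelial genes at 19.9%, *Col4a1* at 15.6%, *Col4a2* at 15.4%, *Lamc1* at 25.7% and *Nid2* (3 UMIs) at 21.1%. Macrophage-like cells (218 control and 391 knockout cells) held *Col4a1* at 27.95% and 12.4% of the LSEC level of their library. *Nid2* stood at 424.5% and 63.36% in them, and *Col18a1* at 269.1% and 105.9%. *Lamb1* and *Col15a1* stood at 0% in control macrophage-like cells, and at 45.32% and 56.03% in knockout macrophage-like cells. The part of the background seen in these cell types in the LSEC values was not tested.

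*Lamb1*, *Col15a1* and *Col18a1* were unevenly spread over *Maf* LSEC-KO LSECs. Cluster 4 of that library held 176 of the 3202 LSECs, or 5.50%, but 62.6% of the *Lamb1*, 76.0% of the *Col15a1* and 63.3% of the *Col18a1* UMIs. *Lamb1* stood at 65.3 CPM in these cells and 1.86 CPM in LSECs outside the cluster, *Col15a1* at 51.4 and 0.773 CPM, and *Col18a1* at 45.2 and 1.25 CPM. Of the 69 LSECs with a *Lamb1* UMI, 27 also had a *Col15a1* UMI, which was 39.1% of the former and 67.5% of the 40 cells with *Col15a1*. *Nid2* had 7.10%, *Lamc1* 8.93% and *Col4a1* 5.80% of its UMIs there.

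Without cluster 4, the log2 ratio to control LSECs was 3.10 for *Lamb1*, 3.64 for *Col15a1* and 0.75 for *Col18a1*, the last being less than 2-fold. Those of *Col4a1* (1.20), *Lamc1* (1.13) and *Nid2* (2.59) stayed above 1. LSECs of cluster 4 carried *Cdh5* at 1322 CPM, *Kdr* at 2244 CPM and *Cd34* at 502.5 CPM, and *Stab2* at 70.9 CPM against 184.4 CPM in LSECs outside it. Before cells with *Vwf* or stellate RNA were left out, the cluster held 493 cells. Its leading genes were *Dcn*, *Ccl21a*, *Rarres2*, *Acta2*, *C3*, *Igfbp6*, *Cxcl12*, *Col3a1*, *Tagln* and *Igfbp3*. They include the stellate genes *Dcn* and *Col3a1* and the smooth muscle genes *Acta2* and *Tagln*. The part of such RNA in the *Lamb1*, *Col15a1* and *Col18a1* values was not tested. Of the 176 cells, 11 had UMIs of 2 or more of the lymphatic genes *Prox1*, *Pdpn*, *Mmrn1* and *Ccl21a*, and these held *Lamb1* at 194.9 CPM (23 UMIs) and *Col18a1* at 228.8 CPM (27 UMIs). The other 165 cells held *Lamb1* at 56.2 CPM, *Col15a1* at 51.4 CPM and *Col18a1* at 32.3 CPM.

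Over all LSECs, 13 of the knockout and 0 of the control library met this lymphatic rule. Without them the log2 ratio between conditions was 4.27 for *Lamb1*, 5.57 for *Col15a1* and 1.79 for *Col18a1*.

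**Figure D2:**
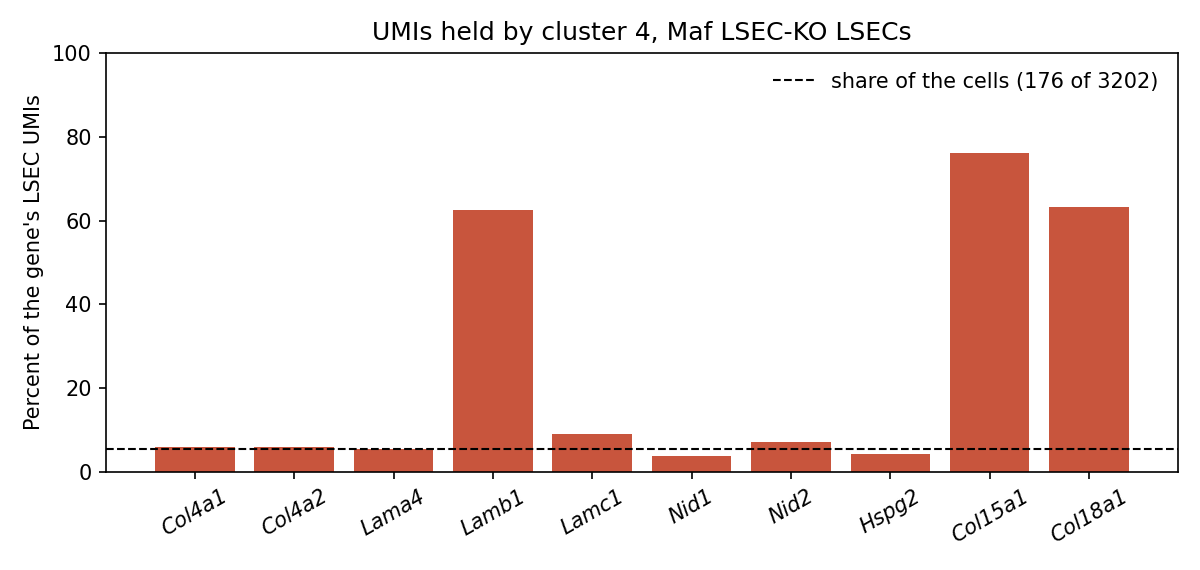
Percent of each gene's UMIs in *Maf* LSEC-KO LSECs that came from the 176 cells of cluster 4 (bars), with the share of cells in that cluster as a dashed line at 5.50%. *Lamb1*, *Col15a1* and *Col18a1* lie between 62.6% and 76.0%, and the highest of the other 7 genes is *Lamc1* at 8.93%.

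*Maf* LSEC-KO LSECs differed in their number of *Maf* UMIs. Of the 3202 cells, 2533 had 0, 336 had 1, 125 had 2 to 4 and 208 had 5 or more *Maf* UMIs. Their median depths were 13573, 18014, 16736 and 10042 UMIs in this order. Cells with 1 *Maf* UMI held *Maf* at 64.7 CPM, against 57.4 CPM in knockout lymphocyte-like cells. The part of depth and background RNA in the classes was not tested. *Col4a1* stood at 1833 CPM (1818–1849) with 0, 1732 CPM (1697–1768) with 1, 1686 CPM (1630–1744) with 2 to 4 and 1230 CPM (1183–1278) with 5 or more. *Col4a2* stood at 816.7, 779.5, 780.5 and 567.7 CPM in these classes, and *Lamc1* at 107.6, 97.6, 103.0 and 75.2 CPM. Cells with 5 or more *Maf* UMIs held *Maf* at 2003 CPM and were the lowest class for these 3 genes, though above control LSECs.

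*Nid2* stood at 28.6 CPM (26.7–30.6) with 0 and 17.5 CPM (12.3–24.1) with 5 or more *Maf* UMIs. In the same classes *Lama4* stood at 259.7 and 240.3 CPM, *Nid1* at 430.5 and 422.0 CPM, and *Hspg2* at 782.0 and 845.0 CPM. Between cells with 0 and cells with 2 or more *Maf* UMIs, the log2 ratio was 0.34 (0.30 to 0.37) for *Col4a1*, 0.28 (0.23 to 0.34) for *Col4a2*, 0.28 (0.12 to 0.44) for *Lamc1* and 0.21 (−0.09 to 0.52) for *Nid2*. The interval of *Nid2* thus included no difference.

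Of 7 members at 10 CPM or more, 0 were 2-fold apart in either direction between these classes, where 0.643% of 9023 genes were at least 2-fold higher and 1.82% at least 2-fold lower without *Maf* UMIs. Cells with 2 or more *Maf* UMIs had fewer UMIs (median 11483 against 13573), and held the lymphatic list at 1047 CPM against 332.0 CPM. This list (*Prox1*, *Pdpn*, *Mmrn1*, *Ccl21a*, *Reln* and *Flt4*) shares *Flt4* with the endothelial genes. It stood at 754.0 CPM in control LSECs, so it does not mark lymphatic cells alone. Its part in these values was not tested. *Col15a1* had 116 UMIs in cells with 0 and 0 in cells with 2 or more *Maf* UMIs. *Lamb1* and *Col18a1*, also rare, went the other way, at 5.07 against 7.76 CPM and 3.23 against 6.55 CPM. Their log2 ratios were −0.62 (−1.17 to −0.02) and −1.02 (−1.65 to −0.35). Set against control LSECs, 1 of 7 members was at least 2-fold higher in cells with 2 or more *Maf* UMIs, where 5.49% of 8838 genes were higher and 1.52% lower. *Col4a1* (1.89-fold), *Col4a2* (1.97-fold) and *Lamc1* (1.95-fold) lay just under the limit. The median log2 ratio of the 7, *Nid2* included, was 0.92. The count was also 1 in cells with 5 or more, where 2.56% of 8725 genes were higher and 0.573% lower, and the gene was *Nid2* in both (log2 ratio 1.99 (1.43 to 2.52) for 5 or more), which reached the mean of 10 CPM only through the knockout cells. The fold of *Col4a1* in cells with 5 or more was 1.60, that of *Col4a2* 1.67 and that of *Lamc1* 1.66.

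**Figure D3:**
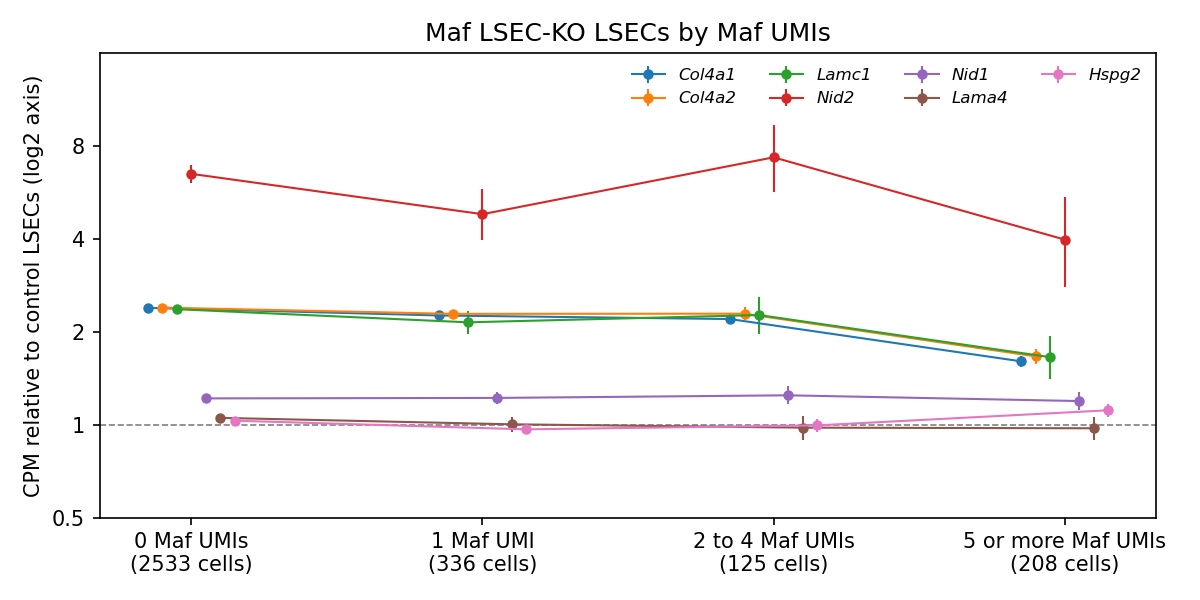
CPM of the 7 members at 10 CPM or more in *Maf* LSEC-KO LSECs with 0, 1, 2 to 4, or 5 or more *Maf* UMIs, relative to their CPM in all control LSECs (log2 axis), with exact Poisson 95% intervals of the class. *Col4a1*, *Col4a2* and *Lamc1* lie above 2 in the first 3 classes and below 2 in the last, *Nid2* lies highest, and *Nid1*, *Lama4* and *Hspg2* stay close to 1.

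Cycling LSECs, taken as cells with UMIs of 3 or more of 12 mitosis genes, were compared with LSECs that had none. There were 82 against 3454 such cells in the control and 737 against 1213 in the knockout library. *Col4a1* stood at 832.7 CPM in cycling and 748.9 CPM in other control LSECs, a log2 ratio of 0.15 (0.06 to 0.25). In knockout LSECs it stood at 1753 and 1770 CPM, a log2 ratio of −0.01 (−0.04 to 0.01). The collagen IV difference between conditions was therefore also present in cells without mitosis genes.

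*Nid2* differed most with cycling in control LSECs among the members at a mean of 10 CPM or more, a mean it reached only through the cycling cells. It stood at 17.8 CPM (20 UMIs) in cycling and 3.87 CPM (99 UMIs) in other control LSECs, a log2 ratio of 2.20 (1.43 to 2.90). In knockout LSECs its log2 ratio was 0.53 (0.30 to 0.76), from 22.9 to 33.0 CPM, and −0.04 between thinned cells with 2 or more mitosis genes and those with none. The difference between the libraries was not tested. *Lama4* was lower in cycling cells of both libraries, with log2 ratios of −0.29 (−0.48 to −0.10) and −0.25 (−0.32 to −0.17).

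In control LSECs 1 of 7 members was at least 2-fold higher and 0 lower in cycling cells, where 8.42% and 1.82% of 8802 genes were. In knockout LSECs 0 of 7 were higher and 0 lower, where 4.83% and 0.576% of 9021 genes were. Cycling cells held more UMIs (medians 14847 against 7811.5 in the control and 22726 against 10047 in the knockout library), and 17 control and 159 knockout LSECs lay on the limit of 3 genes.

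Position along the sinusoid was read from 6 pericentral (*Wnt2*, *Rspo3*, *Wnt9b*, *Cdh13*, *Kit*, *Thbd*) and 6 periportal genes (*Dll4*, *Efnb2*, *Ltbp4*, *Msr1*, *Adam23*, *Efna1*), and LSECs were split into terciles of the pericentral share of these UMIs. *Lama4* was the member with the steepest gradient in control LSECs among those at 10 CPM or more. It fell from 363.7 CPM (351.7–376.0) in the lower to 257.6 CPM (248.2–267.3) in the middle and 137.1 CPM (130.2–144.2) in the upper tercile. The log2 ratio of the upper to the lower tercile was −1.41 (−1.50 to −1.32). *Col4a1* stood at 710.8, 784.3 and 822.9 CPM in the same order, and *Hspg2* at 692.2, 796.5 and 800.9 CPM. *Nid2* went the other way from *Lama4*, with 18, 55 and 65 UMIs, or 1.88, 4.97 and 6.04 CPM, a log2 ratio of 1.68 (0.91 to 2.52).

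Of 6 members at 10 CPM or more in these control LSECs, 1 (*Lama4*) was at least 2-fold lower in the upper tercile and 0 were higher, where 0.971% and 1.28% of 8548 genes were. In knockout LSECs *Lama4* stood at 288.5, 268.6 and 218.8 CPM, a log2 ratio of −0.40 (−0.47 to −0.33). *Nid2* stood at 17.3, 25.4 and 37.6 CPM, a log2 ratio of 1.12 (0.88 to 1.37). The terciles were set within each library and cannot be taken for the same positions. *Wnt2*, 1 of the genes that set them, stood at 41.8 and 558.7 CPM in the outer terciles of control LSECs. In those of knockout LSECs it stood at 0 and 87.8 CPM. The value of 0 follows from the split, as the lower knockout tercile held a pericentral share of 0%. The level of *Wnt2* thus differed between the libraries, and its part in the gradients was not tested. The difference between the gradients was not tested.

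**Figure D4:**
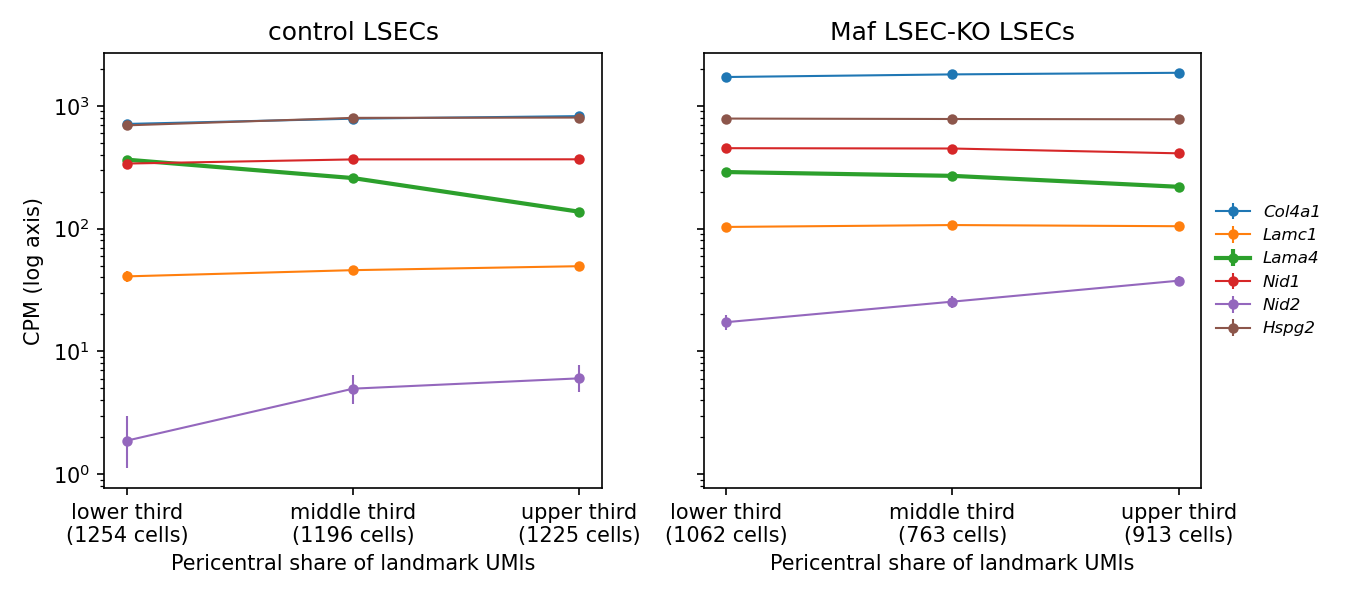
CPM (log axis) of 6 members in terciles of LSECs ordered by the pericentral share of landmark UMIs, for control LSECs (left) and *Maf* LSEC-KO LSECs (right), with exact Poisson 95% intervals. *Lama4* falls from 363.7 to 137.1 CPM in control and from 288.5 to 218.8 CPM in *Maf* LSEC-KO LSECs, while *Nid2* rises in both panels.

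Within knockout LSECs, the 1842 cells with UMIs of 2 or more of 8 tip-cell genes, which mark sprouting endothelium, held *Col4a1* at 1801 CPM and *Nid2* at 31.0 CPM. The 519 cells with none held them at 1663 and 16.6 CPM, so that the log2 ratios were 0.11 (0.07 to 0.16) and 0.90 (0.48 to 1.34). Of 7 members, 0 were at least 2-fold higher and 0 lower with tip-cell genes, where 0.376% and 0.961% of 9052 genes were. The 1452 cells with 5 or 6 of the capillary genes *Cd34*, *Ly6c1*, *Ly6a*, *Plvap*, *Pdgfb* and *Mmp15* held *Col4a1* at 1855 CPM, *Lamc1* at 109.1 CPM and *Nid2* at 31.2 CPM. The 427 cells with 0 to 2 of them held *Col4a1* at 1257 CPM, *Lamc1* at 77.7 CPM and *Nid2* at 13.4 CPM.

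*Nid2* (log2 ratio 1.22 (0.63 to 1.87)) was the 1 of 7 members at least 2-fold higher with more capillary genes, and 0 were lower, where 3.16% and 2.95% of 9076 genes were. Both classes count detected genes and move with depth, with medians of 17343 against 5237 UMIs for the tip-cell and 19178 against 4200 UMIs for the capillary classes. The part of depth in these values was not tested.

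*Vwf*-positive endothelial cells numbered 158 in the control and 1153 in the knockout library. *Col4a1* stood at 717.2 CPM (676.9–759.4) and 1667 CPM (1648–1687) in them, a log2 ratio of 1.22 (1.13 to 1.30) that was close to the one in LSECs. The groups may be unlike mixes of cells and not large-vessel endothelium alone. *Mki67* stood at 3.04 and 217.3 CPM and *Stab2* at 643.6 and 114.5 CPM in them. How far this enters the ratios was not tested. *Nid2* had 3 UMIs in the control and 408 in the knockout cells, a log2 ratio of 3.74 (2.18 to 6.02). *Lamc1* stood at 77.3 CPM (64.4–91.9) and 124.3 CPM (119.0–129.8), a log2 ratio of 0.69 (0.43 to 0.96). *Lamb1* had 0 UMIs in the control cells, which allows up to 1.82 CPM, and 94 UMIs or 5.62 CPM (4.54–6.88) in the knockout cells.

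Of 7 members at 10 CPM or more, 3 were at least 2-fold higher and 0 lower in knockout *Vwf*-positive cells, where 5.98% and 3.69% of 8940 genes were. The 3 were *Col4a1*, *Col4a2* and *Nid2*, the last reaching 10 CPM only through the knockout cells. Within a library, no member at this level was 2-fold apart between *Vwf*-positive cells and LSECs. In the control library 0 of 6 members were at least 2-fold higher and 0 lower in *Vwf*-positive cells than in LSECs, where 3.53% and 1.62% of 8693 genes were. In the knockout library the counts were 0 and 0 of 7, where 1.07% and 0.144% of 9031 genes were.

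Stellate cells lie between sinusoidal endothelium and hepatocytes and make part of the matrix there. They were rare after the CD146 selection, and 9 control and 10 knockout cells were taken as stellate-like from UMIs of at least 7 of 12 stellate genes. *Lamb1* set them apart from LSECs, with 44 UMIs or 330.4 CPM (240.1–443.6) in the control and 57 UMIs or 262.8 CPM (199.0–340.4) in the knockout library. The control cells had 7, 10, 2, 14, 1, 7, 3, 0 and 0 *Lamb1* UMIs, and the knockout cells 7, 12, 9, 4, 8, 5, 1, 1, 9 and 1. *Lamb1* was thus detected in 7 of 9 control and 10 of 10 knockout cells.

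*Lamc1* stood at 240.3 CPM (164.4–339.2) in control and 156.7 CPM (108.5–219.0) in knockout stellate-like cells, with log2 ratios to LSECs of 2.40 (1.85 to 2.91) and 0.59 (0.06 to 1.07). Knockout stellate-like cells without a UMI of *Stab2* or *Clec4g* had only 0, 0, 1, 1 and 0 *Lamc1* UMIs. The knockout value thus rests on cells that carried such UMIs. *Lama4*, in contrast, was lower than in LSECs, with log2 ratios of −1.58 (−2.58 to −0.74) and −0.80 (−1.34 to −0.30). *Hspg2* was also lower, with log2 ratios of −1.10 (−1.55 to −0.69) and −0.48 (−0.75 to −0.22). Of the 26 *Nid2* UMIs in knockout stellate-like cells, 17 came from 1 cell, which also held all 6 *Col18a1* UMIs of the group.

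*Col4a1* stood at 871.1 CPM (719.8–1045) in control and 1328 CPM (1179–1490) in knockout stellate-like cells. These cells carried the 14 endothelial genes at 8966 and 7532 CPM. In the 5 knockout cells without a UMI of *Stab2* or *Clec4g*, the endothelial genes stood at 750.9 CPM and *Col4a1* at 207.1 CPM (89.4–408.2) from 8 UMIs, while *Lamb1* stood at 440.2 CPM (256.4–704.8). *Lamb1* was therefore also present where endothelial RNA was scarce, and the *Col4a1* level was lower there. The part of endothelial RNA in the values of stellate-like cells was not tested beyond this.

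In the control library 3 of 8 members were at least 2-fold higher and 2 at least 2-fold lower in stellate-like cells than in LSECs, where 15.2% and 15.9% of 8920 genes were. In the knockout library 3 of 9 were higher and 0 lower, where 11.2% and 9.95% of 9351 genes were. *Lamb1* in both libraries, *Nid2* in control and *Col18a1* in the knockout reached 10 CPM only through the stellate-like cells. In the 5 cells without *Stab2* and *Clec4g* UMIs, 3 of 9 members were higher and 6 lower, where 27.3% and 31.6% of 9349 genes were. With the 20 knockout cells that had 4 or more stellate genes, 4 of 10 were higher and 4 lower, where 13.3% and 12.1% of 9584 genes were. Between stellate-like cells of the 2 libraries, 2 of 9 members were at least 2-fold higher and 0 lower in the knockout, where 20.6% and 14.8% of 9174 genes were. These were *Nid2* and *Col18a1*, and both rest on the single cell named above, without which *Nid2* had 9 UMIs and a log2 ratio of 0.58 (−1.26 to 2.74) and *Col18a1* had 0 UMIs in both libraries.

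**Figure D5:**
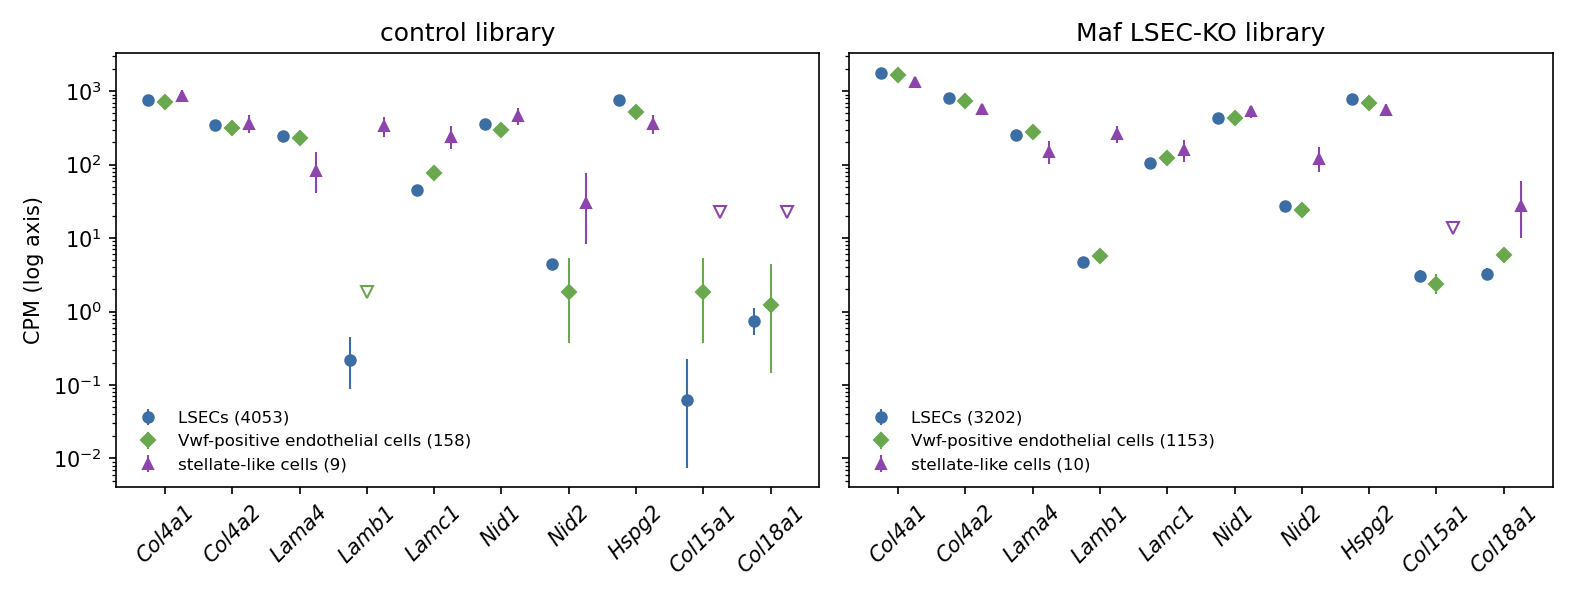
CPM (log axis) of the 10 genes in LSECs, *Vwf*-positive endothelial cells and stellate-like cells of the control (left) and the *Maf* LSEC-KO library (right), with exact Poisson 95% intervals. Open triangles pointing down give the limit of 3 UMIs for a gene with 0 UMIs. *Lamb1* is high in stellate-like cells of both libraries, and *Col4a1*, *Col4a2* and *Nid2* are higher in both endothelial groups of the *Maf* LSEC-KO than of the control library.

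Genes that act with the members were counted by list in LSECs. Of 25 other basement membrane chains and linkers, 7 were at 10 CPM or more, of which 1 was at least 2-fold higher in knockout LSECs and 0 lower, against 8.97% and 4.16% of all genes, which also stand behind the list counts that follow. This was *Agrn*, the heparan sulfate proteoglycan agrin, from 61.8 to 148.1 CPM, a log2 ratio of 1.26 (1.19 to 1.33). *Sparc*, a collagen-binding matrix protein, had a log2 ratio of 0.96, the laminin chain *Lama3* 0.84, and *Ntn4*, the laminin-binding netrin 4, −0.95. Of 18 genes for collagen IV assembly and crosslinking, 16 were at this level, with 3 higher and 0 lower. *Fkbp10*, a chaperone of procollagen, went from 16 to 856 UMIs, or from 0.496 to 21.8 CPM. The lysyl hydroxylase *Plod2* went from 3.85 to 19.5 CPM, and the collagen chaperone *Serpinh1* from 249.6 to 519.1 CPM. *Fkbp10* and *Plod2* stood below 10 CPM in control LSECs and reached the mean only through the knockout group. *Loxl2*, a lysyl oxidase-like enzyme, had a log2 ratio of −0.82.

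The receptor list split. Of 12 genes listed as receptors of laminin and collagen IV, 7 were at 10 CPM or more. Of these, 2 were at least 2-fold higher and 2 at least 2-fold lower. *Itga6*, the alpha chain of laminin-binding integrins, went from 109.5 to 445.5 CPM (log2 ratio 2.02), and *Bcam*, a laminin receptor, from 41.7 to 117.3 CPM (log2 ratio 1.49). *Itga1*, the alpha chain of a collagen-binding integrin, went from 950.3 to 404.4 CPM (log2 ratio −1.23). *Itga9*, another integrin alpha chain, went from 398.0 to 127.1 CPM (log2 ratio −1.65), and its binding of laminin or collagen IV was not examined. Of 10 interstitial collagens, 1 was at 10 CPM or more, *Col5a2*, with 30.7 and 82.9 CPM. The median log2 ratio over the measured genes was 0.22 for the other chains, 0.31 for the assembly genes and −0.04 for the receptors.

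Among 12847 genes compared over 13 groups of at least 20 cells, the genes most like the summed members in log2(CPM + 1) were *Sparc* (Pearson's r = 0.988), *Mtch1* (0.978), *Slc9a3r2* (0.974), *4931406P16Rik* (0.971) and *Apbb2* (0.962). The groups share 2 libraries and their free RNA. Across thinned single cells, *Col4a1* and *Col4a2* had r = 0.441 over 3016 knockout LSECs, the highest of 45 pairs, and the highest pair in control LSECs had r = 0.137. These are descriptions of sparse counts, which share the depth and the background of their library.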

How the data were processed

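The deposited files hold the authors' raw UMI counts for every gene and barcode, 1 library per condition, before any normalization. Per the submitters' processing notes, Cell Ranger 6.0.2 and mm10 were used for alignment and counting, and Seurat 5.0.1 afterwards. The tables hold 5664 control barcodes with 47681895 UMIs and 7091 *Maf* LSEC-KO barcodes with 89872764 UMIs. Barcodes under 1500 UMIs or 750 genes were dropped, leaving 4961 and 5423. Each library was clustered with Seurat 5.3.0 (16 and 20 principal components, resolution 0.3), leaving the 10 members and the other listed matrix genes out of the variable genes. Scrublet in scanpy 1.11.5 marked 0 doublets at its automatic limit, so the 225 and 308 top-scoring cells were removed, at the expected rates of 4.53% and 5.67%. A cluster counted as endothelial when *Pecam1* and 7 or more of the 14 endothelial genes each reached 50% of its cells, and none of *Adgre1*, *Clec4f*, *Ptprc*, *Cd52*, *Acta1* and *Arg1* passed 50%.

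Clusters did not isolate stellate cells. Stellate-like cells were therefore taken singly, by a rule chosen after the data were seen: UMIs of at least 7 of 12 stellate genes, and more UMIs of these than of 14 endothelial and of 5 smooth muscle genes.

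UMIs were summed per group and divided by UMIs outside mitochondrial and ribosomal protein genes. LSECs held 1512 to 51590 UMIs in the control and 1506 to 103948 UMIs in the *Maf* LSEC-KO library. Intervals at the 95% level are exact, Poisson for sums, conditional binomial for ratios and Clopper-Pearson for shares (scipy 1.17.1). For 0 counts, the limit given is that of 3 counts. Cells are not replicates, so no test was run. A call is a ratio of at least 2-fold among genes with a mean of at least 10 CPM in the groups compared. All 10 members are named. Of each other list, up to 4 genes at this level with the largest ratios in either direction are named. *Maf* UMI, mitosis, tip-cell and capillary classes and terciles of landmark share (at least 5 landmark UMIs) were set per cell. Gene positions are from GENCODE M21 and promoters from RefSeq. The computations were tested on simulated data. Alternatives covered scaling (with TMM of edgeR 4.0.16), cell filters, doublets, thinning and class limits. The members and lists were chosen with earlier results of these data known.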

Additional observations from a re-analysis of the deposited data

How the results depend on the processing

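The count of 4 members at least 2-fold higher in *Maf* LSEC-KO LSECs was the same under every alternative scaling, cell filter and class tried but 1. With no minimum beyond 1 UMI in each library, 7 of 10 were higher, the additional genes being *Lamb1*, *Col15a1* and *Col18a1*. These had 7, 2 and 24 UMIs in control LSECs. The share of 8.97% is that of genes at 10 CPM or more and is no background for this count, from which nothing is concluded. Over 16 alternatives the log2 ratio ranged from 1.02 to 1.29 for *Col4a1*, from 1.03 to 1.30 for *Col4a2*, from 1.01 to 1.37 for *Lamc1* and from 2.44 to 2.84 for *Nid2*. It ranged from −0.14 to 0.14 for *Lama4*, from −0.16 to 0.13 for *Hspg2* and from 0.09 to 0.37 for *Nid1*, so that the direction for *Lama4* and *Hspg2* depends on the scaling. Scaling to all UMIs, TMM and the median of ratios shifted every log2 ratio by −0.19, −0.14 and −0.15. *Lamb1* ranged from 1.92, with cells with stellate RNA kept, to 5.73, *Col15a1* from 3.64 to 7.23 and *Col18a1* from 0.75 to 2.87. The alternatives without cluster 4, without cells with lymphatic genes, without clusters led by hepatocyte, platelet or hemoglobin genes, with unthinned shares, and without 1 stellate-like cell were chosen after seeing the data.

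In *Maf* LSEC-KO stellate-like cells the count of members at least 2-fold lower than in LSECs, 0, became 4 with cells of at least 4 stellate genes, where 12.1% of all genes were lower, and 6 with cells without *Stab2* and *Clec4g* UMIs, where 31.6% were. The cause was not tested. The log2 ratio of *Col4a1* between cells with 0 and with *Maf* UMIs was between 0.19 and 0.63 under the alternatives for that class. The alternative of control stellate-like cells without these UMIs gave no value, because every control cell had at least 1 of them. No paired analysis was possible because each condition is 1 library and the labels give no replicate numbers. Low UMI numbers of *Lamb1*, *Col15a1* and *Col18a1* in LSECs, and the small number of stellate-like cells, limit the precision of those values.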
